A study of Mus musculus with 8 samples.

Results

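Metallothioneins, antioxidant enzymes and the NRF2 pathway were followed through 10 listed genes in gastrocnemius, a calf muscle, of arthritic mice with and without dipyridamole. The genes were found by symbol in all 8 count tables, as 10 of 21833 gene symbols, and all 10 passed the filter on low counts, which left 12755 genes. They are the metallothioneins Mt1 and Mt2, the enzymes Cat, Sod1, Sod2, Gpx1, Nqo1 and Hmox1, the transcription factor gene Nfe2l2, which encodes NRF2, and Keap1, which encodes its inhibitor.

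The RA+Dipy group (n = 4 mice) had arthritic serum and dipyridamole at 25 mg/kg per day from day 0. The RA group (n = 4 mice) had the serum alone. All 8 mice were male C57BL/6J recipients aged 12 weeks, injected intraperitoneally with 100 µL of pooled K/BxN serum on day 0 and day 2, and muscle was collected on day 16. K/BxN serum carries autoantibodies that bring on a joint inflammation in the recipient, so the arthritis is transferred and not the recipient's own autoimmunity. Dipyridamole blocks the uptake of adenosine by cells and inhibits phosphodiesterases. Every mouse had arthritis, and no muscle from mice without it was analysed here. The series sets the comparison in the context of rheumatoid cachexia, the muscle loss of arthritis. The labels differ in places: the genotype field gives K/BxN for the recipients, a protocol field names dipyridamole for all 8 samples, and the library kit is TruSeq in one text and NEBNext in another. Groups were taken from the sample titles.

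Metallothioneins are small, cysteine-rich proteins that bind zinc and copper. Their genes are switched on by zinc through the factor MTF1, which binds metal response elements, and also by glucocorticoids and inflammatory cytokines. They are known to be induced in wasting muscle. Superoxide dismutases turn superoxide into hydrogen peroxide, which catalase and glutathione peroxidases then break down. NRF2 is held in the cytoplasm by KEAP1, which marks it for degradation. Under oxidative or electrophilic stress NRF2 escapes, enters the nucleus and turns on genes such as Nqo1 and Hmox1 through antioxidant response elements. In a bulk sample, fewer cells of a type and less RNA per cell cannot be told apart.

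The start-site windows of Mt1 and Mt2 are shown because these genes had the widest range of levels among the 10, and that of Cat because it had the smallest p. A window runs from 250 bases before to 50 after the RefSeq start (GRCm38.p6, 300 bases), and 9 of the 10 genes had one in the table used here, all but Hmox1. In the windows of Mt1 (chr8:94178839-94179138, plus strand), Mt2 (chr8:94172368-94172667, plus strand) and Mt3 (chr8:94152357-94152656, plus strand), a neighbouring metallothionein gene, capitals mark the core of the metal response element. The core was searched as TGCACNC and TGCGCNC on both strands. In the window of Cat (chr2:103485104-103485403, minus strand) capitals mark CCAAT on either strand.
Mt1: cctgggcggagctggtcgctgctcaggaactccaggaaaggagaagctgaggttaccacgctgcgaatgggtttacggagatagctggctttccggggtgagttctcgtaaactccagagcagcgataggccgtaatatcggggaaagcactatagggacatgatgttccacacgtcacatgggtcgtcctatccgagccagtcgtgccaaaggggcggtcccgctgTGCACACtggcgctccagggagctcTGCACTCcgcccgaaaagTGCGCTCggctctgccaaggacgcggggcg
Mt2: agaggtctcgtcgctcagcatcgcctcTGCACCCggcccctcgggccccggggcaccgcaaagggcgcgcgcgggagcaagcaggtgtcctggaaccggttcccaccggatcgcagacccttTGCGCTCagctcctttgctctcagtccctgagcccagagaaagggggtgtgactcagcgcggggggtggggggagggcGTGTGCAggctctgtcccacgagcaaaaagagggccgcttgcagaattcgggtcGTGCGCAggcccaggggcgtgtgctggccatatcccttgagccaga
Mt3: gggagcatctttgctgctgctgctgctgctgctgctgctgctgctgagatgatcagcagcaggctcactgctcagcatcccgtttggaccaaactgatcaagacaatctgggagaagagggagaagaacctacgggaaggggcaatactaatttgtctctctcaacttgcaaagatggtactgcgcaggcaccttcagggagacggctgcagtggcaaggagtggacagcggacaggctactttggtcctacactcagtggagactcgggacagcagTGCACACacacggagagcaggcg
Cat: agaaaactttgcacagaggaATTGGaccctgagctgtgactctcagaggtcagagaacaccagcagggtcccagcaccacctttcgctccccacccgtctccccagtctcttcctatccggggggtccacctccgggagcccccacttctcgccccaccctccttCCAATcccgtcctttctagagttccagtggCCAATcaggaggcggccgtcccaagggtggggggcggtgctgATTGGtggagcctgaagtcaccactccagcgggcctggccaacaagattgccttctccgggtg

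The Mt1 window held 3 metal response cores and the Mt2 window 4, against 1 in the Mt3 window and 0 in the windows of the other 7 listed genes that had one. Counted from the RefSeq start, the Mt1 cores began at −23, 3 and 21 and the Mt2 cores at −223, −128, −50 and 5. The Mt3 core began at 28. Positions above 0 lie after that start, so not all of these cores were upstream of it. Of 32851 RefSeq windows of this length, 25.7% held at least 1 core, 1.97% at least 3 and 0.517% at least 4. The core of the antioxidant response element, TGACNNNGC on either strand, stood once in the windows of Mt2, Sod1 and Nfe2l2, and 12.4% of all windows held it. In the Mt2 window it overlapped no metal response core. The Cat window held CCAAT 4 times, and 1.06% of all windows held it at least 4 times. These are matches of letters, and binding was not measured.

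Levels are in CPM, counts per library scaled to a common total, and errors of fold changes are standard errors (SE). The libraries held 16405268 to 25371526 counts over protein-coding genes in RA+Dipy muscle and 16718884 to 50647761 in RA muscle. RA+Dipy replicate 1 and RA replicate 4 stood apart: their spread around the 8-library median of 2322 well expressed genes was 0.834 and 1.21 log2 units, against 0.17 to 0.35 in the other 6 libraries. The fold change of each listed gene is therefore given with and without these 2 libraries. Summed markers of fast fibres ran from 96735 to 127233 CPM in RA+Dipy and from 117252 to 139951 CPM in RA, as in fast muscle. The listed genes had 30 to 14053 counts per library, so their levels lay well above what a count of 0 allows (3 counts, 0.0591 to 0.254 CPM, counting error only).

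No listed gene passed the threshold between RA+Dipy and RA muscle, and 10 of 10 had overlapping groups. By edgeR's quasi-likelihood test, 0 of the 10 had an adjusted p under 0.05 (background 0.0% of all genes), with a smallest adjusted p of 0.882 among the 10 and over all 12755 genes. Catalase had the lowest p of the 10: 1 gene, higher in RA+Dipy, at an unadjusted p under 0.05, where 3.83% of all genes tested had one (1.68% higher and 2.15% lower). Groups that do not overlap occurred for 0 of the 10 genes and for 2.72% of all genes (1.46% higher and 1.26% lower). Directions were divided evenly, with 5 genes at a log2 fold change above 0 and 5 below (52.2% of all genes were above 0), and a median of −0.01, against 0.02 over all genes. Without the 2 libraries that stood apart 3 were above 0 and 7 below, with a median of −0.17, against 0.01 over all genes. Of all genes tested, limma-voom called 0 (379 at an unadjusted p under 0.05) and so did DESeq2 (740), which gave no p for Mt1 and Mt2.

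**Figure D1:**
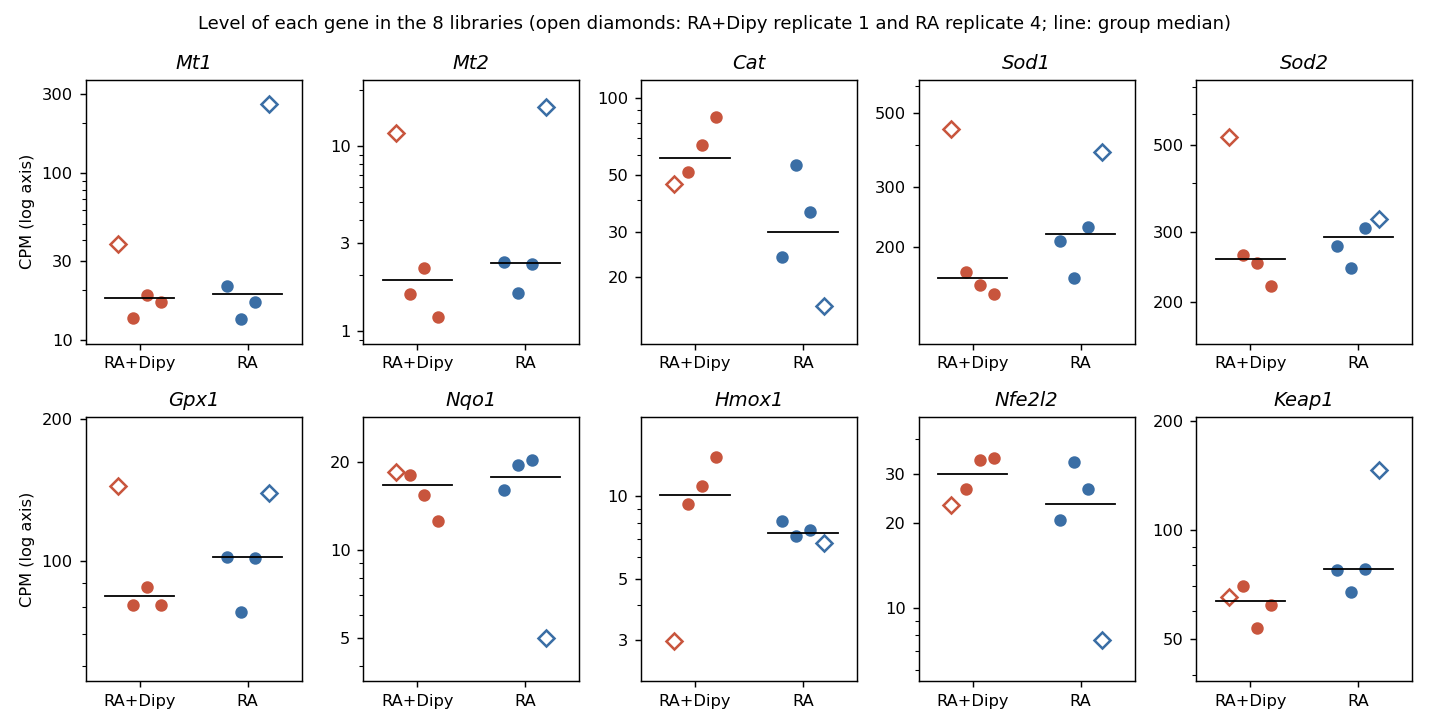
CPM of each listed gene (log axis) in the 4 RA+Dipy libraries (left, red) and the 4 RA libraries (right, blue), with a line at the group median. Open diamonds mark RA+Dipy replicate 1 and RA replicate 4, which for Mt1 stand at 37.9 and 259 CPM while the other 6 libraries lie between 13.4 and 21.1 CPM.

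Metallothionein 1 was the most variable of the genes. Mt1 (chromosome 8, 94179082 to 94180327, plus strand, GRCm38) had 37.9, 13.7, 18.8 and 17.0 CPM in RA+Dipy replicates 1 to 4, against 21.1, 13.4, 16.9 and 259 CPM in RA replicates 1 to 4. A single library, RA replicate 4, was 15.3 times the median of the 6 libraries that resemble each other, and RA+Dipy replicate 1 was 2.23 times that median. The log2 fold change of RA+Dipy over RA was −1.83 (SE 0.92, 95% confidence interval −3.87 to 0.22; edgeR adjusted p = 0.882). Without RA replicate 4 it was 0.37, and −0.05 (SE 0.19) once RA+Dipy replicate 1 was left out as well. The 6 remaining libraries averaged 16.5 ± 2.56 CPM in RA+Dipy and 17.1 ± 3.89 CPM in RA (SD, n = 3 each).

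Metallothionein 2 showed the same 2 libraries at the top, at far lower levels. Mt2 (chromosome 8, 94172664 to 94173568, plus strand) had 11.7, 1.59, 2.19 and 1.20 CPM in RA+Dipy, against 2.36, 1.60, 2.30 and 16.3 CPM in RA. RA replicate 4 stood at 8.59 times and RA+Dipy replicate 1 at 6.19 times the median of the other 6. The log2 fold change was −0.42 (SE 0.91, interval −2.44 to 1.60; edgeR adjusted p = 0.923). Leaving out RA replicate 4 gave 0.99, leaving out RA+Dipy replicate 1 gave −1.71, and leaving out both gave −0.33 (SE 0.29), so its sign turned on a single library. Mt2 shares 432 of its 588 exon bases with the antisense gene Gm45774, and reads of the 2 cannot be separated in counts made without strand. How far this overlap raised or lowered the Mt2 counts, and so their proportion to Mt1, was not tested.

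The proportion of the 2 metallothioneins also differed between libraries. Mt1 had 3.22 counts for each Mt2 count in RA+Dipy replicate 1 (95% exact Clopper-Pearson interval 2.72 to 3.84) and 15.9 in RA replicate 4 (13.7 to 18.5). The other 6 libraries lay between 7.34 and 14.2, with intervals spanning 5.58 to 21.3. The 2 libraries that stood apart thus carried high metallothionein counts in unlike proportions, and both intervals cover counting error only. Mt3, the brain-enriched member of the same cluster, had 8.05, 1.92, 3.23 and 1.28 CPM in RA+Dipy, against 3.92, 1.71, 2.07 and 31.2 CPM in RA. Its highest library was again RA replicate 4, and its log2 fold change was −1.42 (SE 0.95; edgeR adjusted p = 0.882), or 0.48 without that library. Mt4 was removed by the filter on low counts.

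The genes with profiles most like Mt1 over the 8 libraries, among 8838 others with a mean of at least 5 CPM, were Usp2 (Pearson r = 0.997), Efemp2 (0.995) and Samd4b (0.994), and within the other 6 libraries r was 0.98, 0.97 and 0.83. For Mt2 they were Reep5 (0.996), Upf3b (0.995) and Nsmce1 (0.993), with 0.97, 0.92 and 0.95 in the 6. These values are descriptions over libraries that share their scaling. Those libraries also differed in markers of blood: the summed erythroid markers stood at 799, 274, 199.6 and 153 CPM in RA+Dipy, against 264, 149, 228 and 1545 CPM in RA. RA replicate 4 and RA+Dipy replicate 1 were thus highest for erythroid markers and for Mt1, Mt2 and Mt3 alike. Of the erythroid list, 3 of 5 tested members had a log2 fold change above 0 and 0 of 6 markers were at 0 in any library. Their part in the metallothionein values was not tested.

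**Figure D2:**
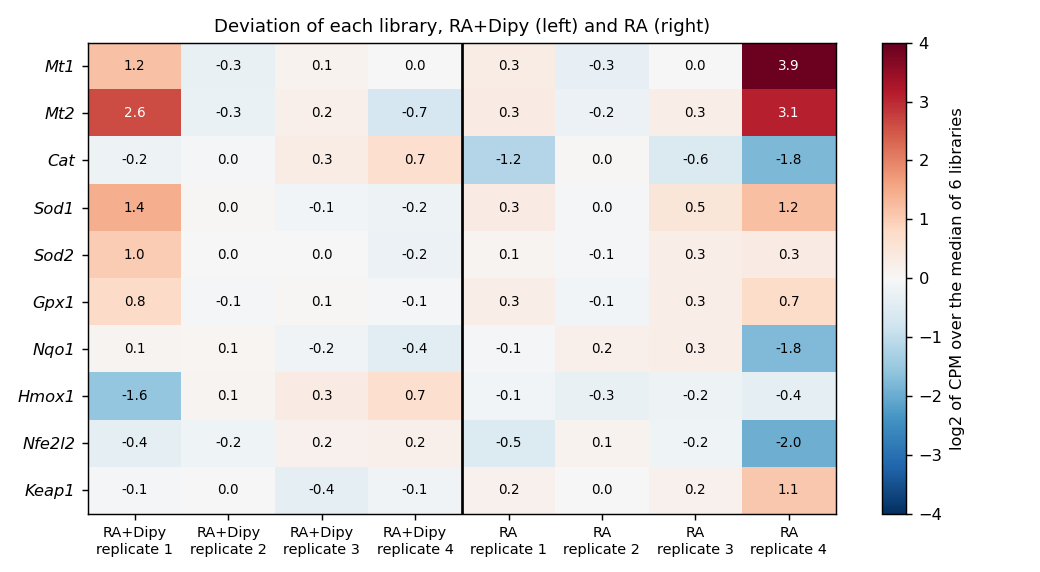
Log2 of each library's CPM over the median of the 6 libraries that resemble each other, for the 10 genes, with RA+Dipy on the left and RA on the right. RA replicate 4 is high for Mt1, Mt2, Sod1 and Keap1 and low for Cat, Nqo1 and Nfe2l2. RA+Dipy replicate 1 is high for Mt1, Mt2, Sod1 and Sod2 and low for Hmox1.

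Catalase, the peroxisomal enzyme that breaks down hydrogen peroxide, had the smallest edgeR p of the 10 genes. Cat (chromosome 2, 103453849 to 103485160, minus strand) had 45.9, 51.5, 65.2 and 84.2 CPM in RA+Dipy, against 23.8, 54.7, 35.7 and 15.3 CPM in RA. A single RA library, replicate 2, reached into the RA+Dipy range, and the other 3 lay below it. Cat averaged 61.7 ± 17.0 CPM in RA+Dipy and 32.4 ± 17.1 CPM in RA (SD, n = 4 each). Its log2 fold change of 0.93 (SE 0.39, interval 0.07 to 1.79) had an edgeR adjusted p = 0.882, with rank 296 of the 12755 genes by p. An exact permutation test of log2 CPM over the 70 assignments gave p = 0.0857 (two-sided, smallest possible 0.0286). The log2 fold change was above 0 under each of 21 alternatives, from 0.71 to 1.31, and 0.83 (SE 0.29; edgeR adjusted p = 0.418) without the 2 libraries. It passed under 1 of them, limma-voom with library weights (log2 1.00, SE 0.21; adjusted p = 0.0431, where 1.04% of genes passed). The alternatives' adjusted p ran from 0.0431 to 0.998.

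The highest sums of adipocyte and macrophage markers were in single RA+Dipy libraries, replicate 4 and replicate 1, and the groups overlapped for both. Sums of neutrophil, fibroblast and slow fibre markers also peaked in a RA+Dipy library. Those of erythroid, endothelial, Schwann cell and fast fibre markers peaked in a RA library. Summed adipocyte markers stood at 814, 402, 439 and 1337 CPM in RA+Dipy, against 448, 296, 399.6 and 781 CPM in RA. RA+Dipy replicate 4, the library with the most Cat, had the most adipocyte markers, and 6 of 7 of these had a log2 fold change above 0, none of them at 0 in any library. Catalase is abundant in fat cells and red cells. RA replicate 4, the library with the least Cat, had the most adipocyte markers of the RA group and the most erythroid markers of all 8 libraries. The part of either cell type in the Cat values was not tested. Cat had a log2 fold change of 0.74 without RA+Dipy replicate 4 and 0.71 without RA replicate 4. The genes most like Cat over the 8 libraries were Myof (r = 0.988), Adam17 (0.984) and Ascc3 (0.983), with r from 0.97 to 1.00 in the other 6.

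The superoxide dismutases were highest in RA+Dipy replicate 1, and RA replicate 4 came next for both. Sod1, the copper-zinc enzyme of the cytosol (chromosome 16, 90220754 to 90226329, plus strand), had 448, 169, 153 and 144 CPM in RA+Dipy, against 209, 161, 228 and 382 CPM in RA. Its log2 fold change was −0.10 (SE 0.44, interval −1.07 to 0.87; edgeR adjusted p = 0.962), or −0.35 (SE 0.16) without the 2 libraries. RA replicates 1, 3 and 4 were above the 3 lower RA+Dipy libraries, and RA replicate 2 lay among them. Sod2, the manganese enzyme of mitochondria (chromosome 17, 13006846 to 13040063, plus strand), had 523, 262, 251 and 219 CPM in RA+Dipy, against 277, 243, 307 and 324 CPM in RA. Its log2 fold change was 0.13 (SE 0.32, interval −0.59 to 0.84; edgeR adjusted p = 0.934) and −0.17 (SE 0.15) without the 2 libraries.

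Gpx1, the selenium-dependent cytosolic glutathione peroxidase (chromosome 9, 108338903 to 108340343, plus strand), had the same top library in each group as the dismutases. It had 144, 80.7, 87.9 and 80.7 CPM in RA+Dipy, against 102, 78.1, 101 and 139 CPM in RA, so the top library of each group was the one that stood apart. RA+Dipy over RA gave a log2 fold change of −0.10 (SE 0.29, interval −0.74 to 0.54; edgeR adjusted p = 0.943), and −0.17 (SE 0.14) without both.

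Nqo1 and Hmox1 are the classical NRF2 targets among the enzymes. Nqo1, a quinone reductase (chromosome 8, 107388225 to 107403206, minus strand), had 18.5, 18.1, 15.4 and 12.6 CPM in RA+Dipy, against 16.1, 19.5, 20.4 and 4.99 CPM in RA. RA replicate 4 was the lowest of the 8, and the other 7 lay within a narrow band. On the log2 scale the fold change was 0.08 (SE 0.38, interval −0.78 to 0.93; edgeR adjusted p = 0.965), and −0.27 (SE 0.17) without the 2 libraries.

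Hmox1, haem oxygenase 1, which degrades haem and is strong in macrophages that clear red cells (chromosome 8, 75093621 to 75100589, plus strand), had 2.97, 9.38, 10.9 and 13.9 CPM in RA+Dipy, against 8.12, 7.19, 7.54 and 6.76 CPM in RA. In RA+Dipy, 3 of 4 libraries lay above every RA library, and replicate 1 lay below them all. Hmox1 had a log2 fold change of 0.33 (SE 0.39, interval −0.54 to 1.20; edgeR adjusted p = 0.885). It was 0.62 without RA+Dipy replicate 1, 0.07 without RA+Dipy replicate 4, and 0.59 without both libraries that stood apart (SE 0.18; edgeR adjusted p = 0.418). In those 6 libraries Hmox1 averaged 11.4 ± 2.31 CPM in RA+Dipy and 7.62 ± 0.466 CPM in RA (SD, n = 3 each), with no overlap. That held for 14.1% of all genes there, 7.92% with RA+Dipy higher. With 3 mice a group 2 of the 10 genes, Cat and Hmox1, had an unadjusted p under 0.05, against 11.4% of all genes.

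Macrophage markers summed to 353, 176, 333 and 309 CPM in RA+Dipy, against 129, 191, 190.3 and 318 CPM in RA. Of these markers 10 of 11 had a log2 fold change above 0 and 0 were at 0 in any library. RA replicate 4 had many macrophage marker counts beside the second lowest Hmox1 level, and RA+Dipy replicate 1 the most beside the lowest. Their part in the Hmox1 values was not tested. Genes most like Hmox1 over the 8 libraries were G6pdx (r = 0.984), Cog2 (0.981) and Flnc (0.978), and those most like Nqo1 were Mettl11b (0.997), Ppp2cb (0.992) and Ssbp2 (0.991).

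**Figure D3:**
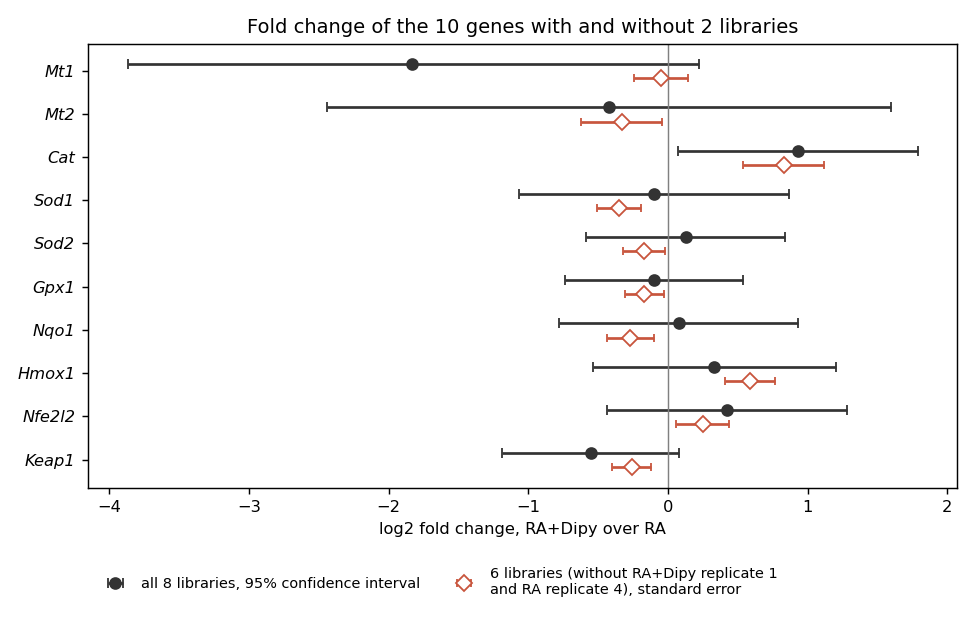
Log2 fold change of RA+Dipy over RA for the 10 genes, from all 8 libraries (filled circles, 95% confidence interval) and from the 6 libraries without RA+Dipy replicate 1 and RA replicate 4 (open diamonds, standard error). For Mt1 the value is −1.83 with all libraries and −0.05 with 6, whereas Cat keeps 0.93 and 0.83.

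The sensor pair gave opposite signs without passing the test. Nfe2l2 (chromosome 2, 75675513 to 75704641, minus strand) had 23.2, 26.6, 33.6 and 34.2 CPM in RA+Dipy, against 20.5, 33.0, 26.6 and 7.69 CPM in RA. The groups overlapped, with RA replicate 4 far below the other 7, and the log2 fold change was 0.42 (SE 0.39, interval −0.44 to 1.28; edgeR adjusted p = 0.882), or 0.15 without that library and 0.25 (SE 0.19) without both. Leaving out RA replicate 2 gave 0.68. Keap1 (chromosome 9, 21229730 to 21239361, minus strand) had 65.6, 70.2, 53.8 and 62.3 CPM in RA+Dipy, against 77.8, 67.7, 78.3 and 146 CPM in RA. RA replicate 2 lay below the top RA+Dipy library and the other RA libraries above all 4. For Keap1 the log2 fold change was −0.55 (SE 0.29, interval −1.19 to 0.08; edgeR adjusted p = 0.882), with an exact permutation p of 0.0571 over the 70 assignments. Keap1 stood at −0.23 without RA replicate 4 and −0.26 (SE 0.14) without both libraries. It shares 510 of its 4693 exon bases with the antisense gene Gm16754. Per length of the principal transcript, Nfe2l2 had 0.516, 0.554, 0.911 and 0.802 of the Keap1 level in RA+Dipy, against 0.384, 0.712, 0.495 and 0.0767 in RA.

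In level, Sod1 led in both groups by the length of its principal transcript. Per kilobase of the principal GENCODE transcript, its median was 251 CPM in RA+Dipy and 341 CPM in RA, followed in the order of the RA+Dipy medians by Gpx1 at 78.6 and 94.9, Sod2 at 43.8 and 49.8 and Mt1 at 32.6 and 34.6. Cat (22.3 and 11.4), Keap1 (17.7 and 21.6), Nfe2l2 (12.2 and 9.50) and Nqo1 (10.8 and 11.5) came next. The ranges of Cat and Keap1 overlapped in both groups, as did those of Nfe2l2 and Nqo1 and those of Sod2 and Mt1. In RA+Dipy the ranges of Gpx1 and Sod2 overlapped, as did those of Mt1 and Cat. In RA, Mt1 reached from 24.3 to 473 CPM, its top being RA replicate 4. That span held all of Gpx1 (72.8 to 130) and reached into Sod1 (251 to 595). By the RA medians Cat came after Keap1 and Nqo1. Ranges leave out that both genes were read in the same libraries, and the order within each library was not compared. Sod1 lay above Gpx1 in both groups on this length, but per kilobase of all exons merged Gpx1 ranked above Sod1, with medians of 58.5 against 40.6 CPM in RA+Dipy and 70.6 against 55.0 CPM in RA. Hmox1 (6.45 and 4.69) and Mt2 (3.70 and 4.57) had the lowest medians, with ranges that overlapped. The place of Mt2 is limited by the antisense overlap given above. Over the 6 libraries that resemble each other, the coefficient of variation of CPM ran from 11.6% for Sod2 and 12.2% for Gpx1 to 40.7% for Cat. Over all 8 it was 171% for Mt1 and 117% for Mt2.

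Co-variation was computed for the 45 pairs of listed genes on log2 CPM. Over the 6 libraries, Sod1 and Sod2 had r = 0.94 and rho = 0.94 (exact permutation p of r = 0.00278, adjusted over the pairs 0.0625). Cat and Nfe2l2 had r = 0.93 and rho = 1.00 (exact permutation p of r = 0.00139, adjusted 0.0625), and Nqo1 and Hmox1 r = −0.91 and rho = −0.89 (exact permutation p of r = 0.0181, adjusted 0.201). Over all 8 libraries Nqo1 and Hmox1 had r = −0.09 and rho = −0.33 (exact permutation p of r = 0.725). Of the 45 pairs, 0 passed in the 6 libraries and 8 had an unadjusted p under 0.05. Over all 8 libraries 16 pairs passed by r and 15 by rho, and each of the 16 kept its sign in the 6. Over the 8, Mt1 and Mt2 had r = 0.88 and rho = 0.79 (exact permutation p adjusted over the pairs 0.0115 and 0.0661). In the 6 they had r = 0.56 and rho = 0.49 (exact permutation p of r = 0.246). The correlations with and without the 2 libraries were not tested against each other. So few libraries cannot show whether the relation is absent there. The points share their normalisation and, in part, the group difference.

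The wider pathway lists, 8 in number with 119 genes tested of 121, gave 0 genes past the adjusted threshold in either direction. At an unadjusted p under 0.05 there were 2 of the 119 (Selenow and Cd163), 1.68%, against 3.83% of all genes. Groups that do not overlap occurred for 2 of the 119, Ggt7 and Mgst1, again 1.68%, against 2.72% of all genes. Directions were divided, with 62 genes above 0 and 57 below. Without the 2 libraries 13 of the 119 had an unadjusted p under 0.05, where 11.4% of all genes did.

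**Figure D4:**
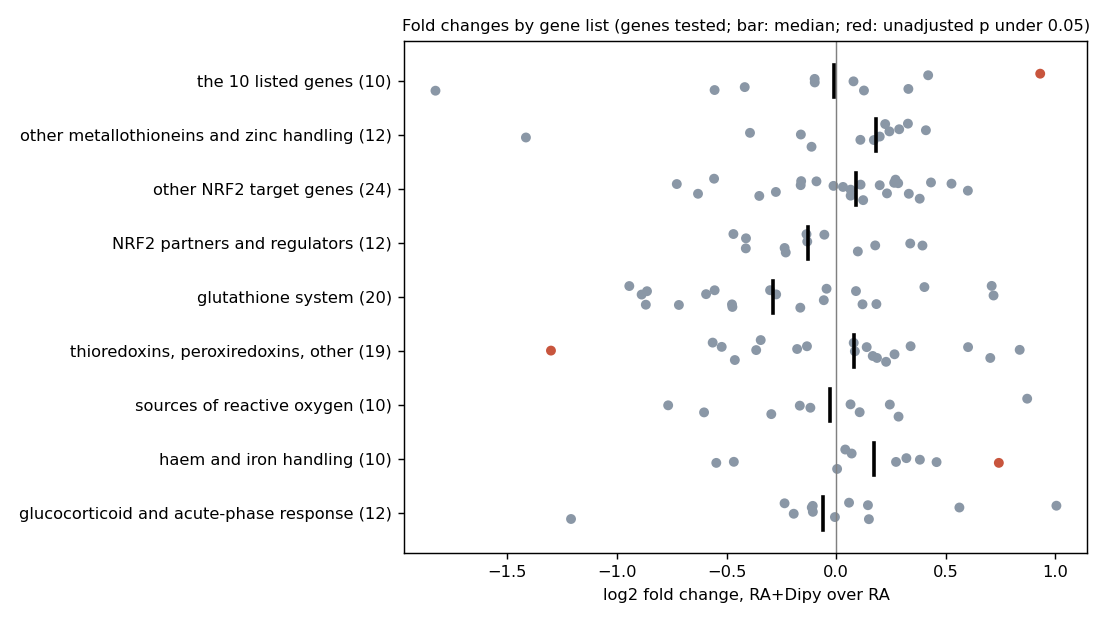
Log2 fold change of RA+Dipy over RA for each gene tested of the 10 listed genes and 8 wider lists, with the median as a bar and genes at an unadjusted p under 0.05 in red. With all 8 libraries the medians lie between −0.29 for the glutathione system and 0.18 for metallothioneins and zinc handling, and without the 2 libraries that stood apart (not drawn) these are −0.14 and 0.05, with 0.37 for the sources of reactive oxygen.

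Of other metallothioneins and zinc handling genes, 8 of 12 had a log2 fold change above 0 (median 0.18, or 0.05 without both libraries), 0 passing. Besides Mt3, the smallest p was that of Slc30a2, a vesicular zinc exporter, with 27.7 ± 9.26 CPM in RA+Dipy and 36.4 ± 6.70 CPM in RA (SD, n = 4 each; log2 −0.39, SE 0.28), with −0.26 when RA+Dipy replicate 1 was left out and −0.64 when replicate 2 of that group was. Of other NRF2 targets, 15 of 24 were above 0 (median 0.09), 0 passing. Gstm1, a glutathione transferase, averaged 142 ± 45.8 CPM in RA+Dipy and 236 ± 84.0 CPM in RA (log2 −0.73, SE 0.33), and Aox1, an aldehyde oxidase, 13.3 ± 2.58 and 8.71 ± 4.68 CPM (0.60, SE 0.40). Without RA replicate 4, Gstm1 stood at −0.47 and Aox1 at 0.34, and without RA replicate 2 Aox1 stood at 0.95. Among partners and regulators of NRF2, 4 of 12 were above 0 (median −0.13), 0 passing. Sqstm1, the autophagy receptor p62 that sequesters KEAP1, had 556, 711, 567 and 513 CPM in RA+Dipy, against 806, 704, 709.6 and 902 CPM in RA (log2 −0.41, SE 0.26; edgeR adjusted p = 0.882). Its groups overlapped because RA+Dipy replicate 2 lay above RA replicates 2 and 3. Maff, a small Maf partner, stood at −0.47 (SE 0.34), with −0.26 when RA+Dipy replicate 1 was left out and −0.73 when replicate 3 of that group was.

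The glutathione system had 6 of 20 genes above 0 (median −0.29), 0 passing. Its median was 0.0 without RA replicate 4 and −0.14 without both libraries, with 7 of 20 above 0. Ggt7, of the gamma-glutamyltransferase family, was near the filter at 1.19 ± 0.261 CPM in RA+Dipy and 1.81 ± 0.116 CPM in RA, with no overlap (log2 −0.59, SE 0.28; edgeR adjusted p = 0.882). Gpx8, a peroxidase of the endoplasmic reticulum, had 11.6 ± 5.08 and 7.01 ± 1.94 CPM (0.72, SE 0.35), with 0.42 when RA+Dipy replicate 1 was left out and 0.31 without both. Mgst1, a membrane-bound glutathione transferase named after its values were seen, also had no overlap, at 59.3, 44.8, 42.6 and 46.1 CPM in RA+Dipy, against 28.6, 41.7, 39.2 and 8.03 CPM in RA (0.71, SE 0.43).

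Thioredoxins, peroxiredoxins and other antioxidant enzymes had 11 of 19 genes above 0 (median 0.08), 0 passing. Without both libraries the direction turned, with 6 of 19 above 0 (median −0.16), and the median was −0.17 without RA+Dipy replicate 1. Selenow, the small muscle selenoprotein W, had 1754, 1329, 1038 and 896 CPM in RA+Dipy, against 1975, 1162, 1707 and 7522 CPM in RA (log2 −1.30, SE 0.57; edgeR adjusted p = 0.882). RA replicate 4 set much of that size. Without it Selenow stood at −0.35, and without both libraries at −0.56 (SE 0.22). By limma-voom with library weights it stood at −0.72 (adjusted p = 0.0754). Selenop, the selenium carrier of plasma, stood at 0.84 (SE 0.46). Genes that produce reactive oxygen had 5 of 10 above 0 (median −0.03), 0 passing. RA replicate 4 alone moved that median, which was 0.43 without it, and without both libraries 9 of 10 were above 0 (median 0.37). Nox4, an oxidase that releases hydrogen peroxide, had 2.24, 1.55, 2.73 and 2.80 CPM in RA+Dipy, against 0.532, 1.74, 1.60 and 1.27 CPM in RA (log2 0.87, SE 0.40; edgeR adjusted p = 0.882). Cyba, a subunit of the phagocyte oxidase, stood at −0.77 (SE 0.61), and at 0.32 without RA replicate 4.

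Haem and iron handling had 8 of 10 genes above 0 (median 0.17), 0 passing. Cd163, the macrophage receptor for haemoglobin, averaged 12.1 ± 3.15 CPM in RA+Dipy and 7.22 ± 3.02 CPM in RA (log2 0.74, SE 0.33; edgeR adjusted p = 0.882), and Blvra, which reduces the biliverdin that haem oxygenase makes, stood at 0.46 (SE 0.27), or 0.23 without RA+Dipy replicate 1 and 0.12 without both libraries. Of the macrophage markers, 10 of 11 were above 0 and 0 passed by edgeR, with summed levels that overlapped between the groups as given above. By edgeR 4 of 11 had an unadjusted p under 0.05 (3.83% of all genes), and 8 of 11 without both libraries (11.4%). By limma-voom with library weights 3 of 11 passed the adjusted threshold (1.04% of all genes). The part of these markers in the Cd163 value was not tested. The glucocorticoid and acute-phase list, whose inducers also act on metallothioneins, had 5 of 12 above 0 (median −0.06), 0 passing. Pdk4, a kinase that restrains pyruvate oxidation, averaged 370.1 ± 89.6 CPM in RA+Dipy and 184 ± 121 CPM in RA (1.00, SE 0.48). Lcn2, an acute-phase protein, had 2.11, 0.849, 1.35 and 1.24 CPM in RA+Dipy, against 1.20, 1.14, 0.976 and 9.97 CPM in RA. Its high library was again RA replicate 4, and its log2 fold change was −1.21 (SE 0.76), or 0.31 without that library.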

How the data were processed

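The authors deposited raw read counts per protein-coding gene for each library. Single 100-nt reads of poly(A) RNA were, per the labels' design text, trimmed (fastp 0.20.0), aligned (STAR 2.7.3a, GRCm38.p6) and counted by HTSeq without strand, so antisense overlaps cannot be separated. Which gene annotation they used is not stated there. Counts of 24 symbols on more than 1 line were summed, leaving 21833. Genes were kept with filterByExpr (minimum count 10), scaled by TMM and tested with edgeR 4.0.16 (quasi-likelihood, robust, group as sole term), with Benjamini-Hochberg adjustment over 12755 genes. CPM are edgeR's counts scaled to the TMM-adjusted library total. The test was checked on simulated data. Each library is 1 mouse per the design text, and no pair within a group agreed within sampling noise (smallest chi-square per degree of freedom 29.3). Positions and lengths come from GENCODE vM21, sequences from RefSeq (GRCm38.p6).

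Alternatives used other scalings and filters, DESeq2 1.42.0, limma 3.58.1, GC and length offsets, a replicate block, an exact permutation test and fewer libraries; gene length was changed after seeing the data. The listed genes, wider lists and alternatives were chosen with earlier results of these data known. Named genes are the 10, the 2 with the smallest p of each wider list plus any with an unadjusted p under 0.05, and the 3 most correlated with each of 5 listed genes.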

Additional observations from a re-analysis of the deposited data

Results flagged for a closer look

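In a group of 4, a library was picked out by its gap to the nearest of the others. That gap had to exceed Dixon's 95% critical share of the group's range. For independent, normally distributed values this happens in about 1 in 20 groups. The groups here were read in the same 8 libraries, and part of the genes were named for a small p. The rate therefore does not apply to them, and the share over all genes was not computed. Of 52 groups of 4 examined (26 genes), 11 were picked out, 7 through RA replicate 4 and 4 through RA+Dipy replicate 1, the 2 libraries that stood apart over all genes.

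In RA+Dipy replicate 1, Sod1 stood at 448 CPM (other RA+Dipy libraries 144 to 169), Sod2 at 523 CPM (219 to 262), Gpx1 at 144 CPM (80.7 to 87.9) and Mt2 at 11.7 CPM (1.20 to 2.19). In RA replicate 4, Mt1 stood at 259 CPM (other RA libraries 13.4 to 21.1), Mt2 at 16.3 CPM (1.60 to 2.36) and Mt3 at 31.2 CPM (1.71 to 3.92). Keap1 was at 146 CPM there (67.7 to 78.3), Selenow at 7522 CPM (1162 to 1975), Cyba at 64.3 CPM (7.73 to 14.0) and Lcn2 at 9.97 CPM (0.976 to 1.20). Mt2 was thus picked out in both groups, through a library in each.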

How the results depend on the processing

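Over 20 alternatives to the edgeR fit, the count of genes called stayed at 0 except with limma-voom and library weights, which called 133 genes, 1 of the 10 listed (Cat) and 1 of the wider lists (Cybb, named after its values were seen). Of the cell type markers, that fit called 3 of 11 for macrophages and 1 of 6 for fibroblasts. Cat, Hmox1, Nfe2l2 and Keap1 kept their direction throughout. Leaving out each library in turn gave log2 fold changes of −2.22 to 0.37 for Mt1, −1.71 to 0.99 for Mt2, −0.65 to 0.22 for Sod1, −0.24 to 0.27 for Sod2, −0.34 to 0.09 for Gpx1, −0.19 to 0.24 for Nqo1, −2.14 to 0.48 for Mt3, −1.08 to 0.32 for Cyba and −1.52 to 0.31 for Lcn2. With GC and length offsets the sign turned for Sod2 (−0.13), Gpx1 (0.18) and Nqo1 (−0.03). The other listed genes then stood at −1.55 (Mt1), −0.12 (Mt2), 0.86 (Cat), −0.29 (Sod1), 0.51 (Hmox1), 0.32 (Nfe2l2) and −0.21 (Keap1). Sizes thus shrank for some, Keap1 among them, and grew for Sod1 and Hmox1. Under these offsets Mt3 stood at −0.58, Selenow at −0.69 and Cyba at −0.13. Without RA replicate 4 and RA+Dipy replicate 1 it turned for Sod2 (−0.17), Nqo1 (−0.27) and Lcn2 (0.05), and with library weights for Sod2 (−0.20), Nqo1 (−0.26) and Lcn2 (0.13); the cause was not tested. Pairs of listed genes past the threshold numbered 16 with 8 libraries and 0 with 6, where fewer mice also limit the p. Deviations from the group means correlated at −0.32, 0.248, 0.304 and −0.449 between same-numbered libraries. Those means include the 2 libraries that stood apart, which correlated at 0.456 with each other. The values therefore cannot show whether replicate numbers paired the mice. The replicate block called 0 genes, with Mt1 at −0.50 and Cat at 1.03. Genes with unadjusted p under 0.05 numbered 488, against 165 with the block, 724 without a filter and 1461 without the 2 libraries. DESeq2 gave 740 and set the p of Mt1 and Mt2 aside. With library weights, limma-voom gave 3638, the most of all. Those weights ran from 0.11 for RA replicate 4 and 0.174 for RA+Dipy replicate 1 to 4.8 for RA+Dipy replicate 3. RA replicate 2, the RA library within the RA+Dipy range for Cat, had 0.734. The p-values measure the spread between these mice.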
